A study of Mus musculus with 12 samples.

Results

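The 33 genes described here belong to the interferon response and to the presentation of peptides on major histocompatibility complex (MHC) class I molecules. They were listed by name for this account and found by gene symbol among the 12393 genes measured. Of the 33, 29 had a probe set annotated to that gene alone, and where a gene had several, the brightest by its mean across the 12 arrays was used. Isg15 had only a probe set shared with another gene, and Ddx58, Xaf1 and Ifi44 were not matched by symbol or synonym. The expression of these 4 genes was not analysed here.

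The RNA came from cultured fibroblasts of the stromal vascular fraction of mouse fat, the part of the tissue left when the fat cells are removed. The 4 groups, with 3 arrays each, were GFP+ and GFP- cells of inguinal fat and GFP+ and GFP- cells of epididymal fat. Inguinal fat lies under the skin and epididymal fat inside the abdomen. Every group, GFP- cells included, came from male Zfp423-GFP transgenic mice of 6 to 8 weeks on a mixed FVB and C57BL/6 background. Cells were sorted on green fluorescent protein (GFP) out of stromal vascular cultures, put back into culture, grown in medium with fetal bovine serum and harvested while still proliferating. The series asks which genes characterise the preadipocyte fibroblasts of each depot. The labels name no interferon or other agent added to the cultures. Whether the 3 arrays of a group stand for separate mice or cultures is not stated, so the p-values reflect array-to-array spread, part or all of which may be technical.

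Interferons are secreted proteins that cells release on sensing virus or other danger. Type I interferons act through a receptor whose kinases phosphorylate Stat2, which with Irf9 acts at interferon-stimulated response elements in DNA, while interferon gamma acts at gamma-activated sites. The induced genes include sensors of viral RNA, antiviral effectors, GTPases that attack the vacuoles of intracellular pathogens, and the machinery of class I presentation. In that machinery the immunoproteasome subunits Psmb8, Psmb9 and Psmb10 replace constitutive subunits and cut proteins into peptides. The transporter formed by Tap1 and Tap2 carries the peptides into the endoplasmic reticulum, and tapasin, Tapbp, holds the class I heavy chain and its light chain B2m at the transporter while they are loaded.

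Values are probe set signals on a linear scale in arbitrary units. Each comparison used limma on log2(signal + 16) over all 12 arrays, with Benjamini-Hochberg adjustment over all 12393 genes, and "rose", "fell", "higher" and "called" below mean an adjusted p under 0.05. Differences are on this log2 scale, tested as GFP+ minus GFP- or inguinal minus epididymal, with their standard error (SE), and the scale understates changes of weak genes. Genes in the lowest 30% of means (signal under 77.7) were called weakly detected. Olfactory and vomeronasal receptor genes, which fibroblasts do not use, gave a silent level: the 90th percentile of their group means was 44.6 in GFP+ and 46.4 in GFP- cells of the inguinal depot, and 64.6 in GFP+ and 62.5 in GFP- cells of the epididymal depot. Rsad2 and Mx1 were weakly detected and lay under that level in all 4 groups. Ifit1 (57.5) and Usp18 (27.0) lay under it in epididymal GFP- cells, and no other member did so in any group. Zfp423 averaged 124 ± 22.9 in GFP+ and 57.4 ± 13.8 in GFP- inguinal cells (SD, n = 3 each), and 242 ± 35.1 in GFP+ and 29.4 ± 3.80 in GFP- epididymal cells, with the higher mean in the fraction labelled GFP+ in both depots. Of 12 fibroblast progenitor markers 2 were weakly detected, Pi16 lay under the silent level in every group, and the summed signal of the 12 was 94071 to 103825 in GFP+ and 95700 to 97751 in GFP- cells of the inguinal depot, and 110774 to 112083 in GFP+ and 96008 to 102990 in GFP- cells of the epididymal depot.

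The promoters of these genes are known as carriers of interferon elements, and 5 of them are printed because their genes carry the differences described below. The sequences are RefSeq windows of the mouse build GRCm38.p6, from 250 bases before to 50 bases after the annotated start, read 5′ to 3′ on the gene's strand. Windows were given for 29 of the 33 listed genes, and not for Tap2, Usp18, Iigp1 and Mx1. These 29 are not the 29 measured members, as they include Isg15, Ddx58, Xaf1 and Ifi44. A pair of patterns was searched in the windows, with overlapping matches counted. The first was GAAA, any 2 bases and GAAA again, on both strands, the core of the interferon-stimulated response element. The second was TTC, any 3 bases and GAA, the gamma-activated site, which reads alike on both strands. Capitals mark every base of a match.
Bst2, chr8:71537423-71537722, minus strand: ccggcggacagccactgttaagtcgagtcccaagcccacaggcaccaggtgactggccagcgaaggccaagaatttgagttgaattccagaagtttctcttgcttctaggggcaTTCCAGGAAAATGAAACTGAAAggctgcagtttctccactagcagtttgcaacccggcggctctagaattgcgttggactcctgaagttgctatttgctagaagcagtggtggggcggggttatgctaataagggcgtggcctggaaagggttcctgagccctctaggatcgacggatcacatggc
Ifit1, chr19:34640639-34640938, plus strand: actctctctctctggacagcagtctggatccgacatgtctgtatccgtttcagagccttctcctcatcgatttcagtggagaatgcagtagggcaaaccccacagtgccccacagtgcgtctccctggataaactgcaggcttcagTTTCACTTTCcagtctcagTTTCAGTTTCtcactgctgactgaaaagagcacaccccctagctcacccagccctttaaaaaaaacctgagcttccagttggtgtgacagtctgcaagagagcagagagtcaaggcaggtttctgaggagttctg
Gbp3, chr3:142559794-142560093, plus strand: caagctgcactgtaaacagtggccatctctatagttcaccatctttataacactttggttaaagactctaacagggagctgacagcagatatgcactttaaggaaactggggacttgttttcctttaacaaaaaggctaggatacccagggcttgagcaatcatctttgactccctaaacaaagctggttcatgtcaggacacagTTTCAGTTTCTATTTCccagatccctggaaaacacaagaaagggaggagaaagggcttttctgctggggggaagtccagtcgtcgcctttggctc
Psmb8, chr17:34197945-34198244, plus strand: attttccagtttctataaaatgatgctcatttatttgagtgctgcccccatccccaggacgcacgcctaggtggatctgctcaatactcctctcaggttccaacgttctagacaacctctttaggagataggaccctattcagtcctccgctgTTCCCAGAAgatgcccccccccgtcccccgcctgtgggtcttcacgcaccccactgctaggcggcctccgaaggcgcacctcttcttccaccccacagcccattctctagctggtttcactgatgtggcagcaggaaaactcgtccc
Tap1, chr17:34187306-34187605, plus strand: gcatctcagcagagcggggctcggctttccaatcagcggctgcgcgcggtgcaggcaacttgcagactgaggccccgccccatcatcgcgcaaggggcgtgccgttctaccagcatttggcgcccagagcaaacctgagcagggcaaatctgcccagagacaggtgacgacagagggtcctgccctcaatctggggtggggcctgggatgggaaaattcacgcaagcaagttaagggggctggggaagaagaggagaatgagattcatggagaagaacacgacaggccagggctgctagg
The first pattern occurred in at least 1 window of 14 of the 29 genes (48.3%), against 1079 of all 27025 genes with a window (3.99%). The 14 include Isg15 and Ddx58, whose expression was not analysed. The second pattern occurred in 7 of the 29 (24.1%), against 9.55% of all genes. The Bst2 window held both, overlapping each other, the Ifit1 window held 2 separate matches of the first, and the Gbp3 window held 2 overlapping matches of the first. The Psmb8 window held 1 match of the second, and the Tap1 window neither. Gbp3 has a further annotated start, whose window held neither. Tap1 and Psmb9 are neighbours transcribed in opposite directions, and their windows share 275 bases. A match is a run of letters and not a measured site, and its absence says only that those letters are not in this window.

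The members did not move as a block, but most of them were brightest in inguinal GFP+ cells. Of the 29 measured members 18 had their highest group mean there (62.1%), against 21.8% of all genes. The lowest mean was in epididymal GFP- cells for 12 members (41.4%, against 30.3% of all genes) and in epididymal GFP+ cells for 10 (34.5%, against 20.9%). The span between groups was wide for a few members and narrow for others. The highest group mean exceeded the lowest 11.5-fold for Psmb8, 3.60-fold for Gbp3 and 2.95-fold for Tap2, and only 1.14-fold for both B2m and Ifi35. The lowest mean of Psmb8, 76.2 in epididymal GFP- cells, was close to the silent level of 62.5. No fold is given for Usp18 and Ifit1, whose lowest group lay under the silent level. The coefficient of variation between replicate arrays, over the 27 members not weakly detected, had a median of 9.76% for GFP+ and 6.50% for GFP- cells of the inguinal depot, and of 8.12% for GFP+ and 6.10% for GFP- cells of the epididymal depot.

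**Figure D1:**
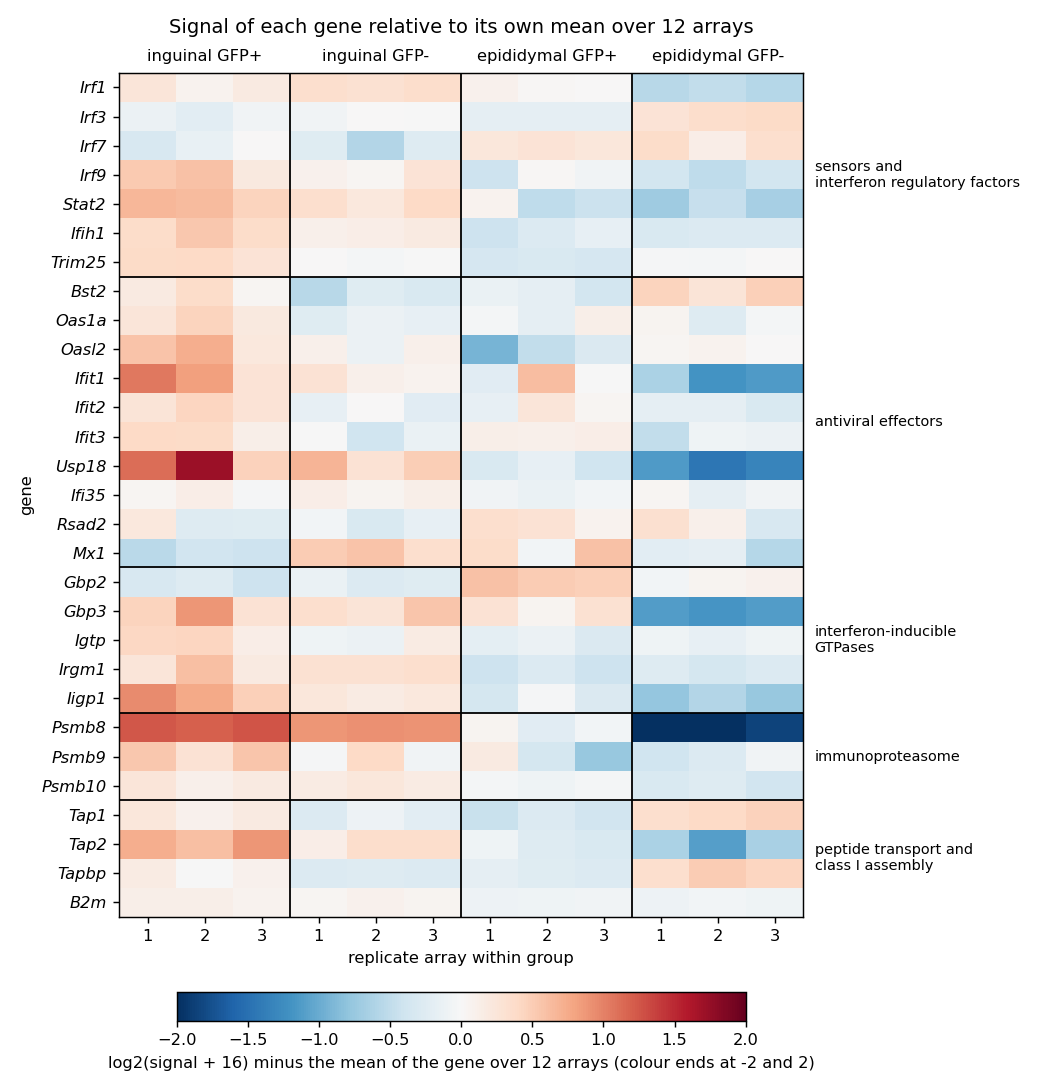
Heat map of the 29 measured members (rows, grouped by role) on the 12 arrays (columns, 3 replicates per group), as log2(signal + 16) minus the gene's mean over all arrays; red is above and blue below that mean, and the colour scale ends at -2 and 2. Psmb8, Usp18, Ifit1 and Gbp3 run from red in inguinal cells to blue in epididymal GFP- cells, while Tap1, Tapbp and Bst2 are highest in epididymal GFP- cells, with inguinal GFP+ cells next; Rsad2 and Mx1 lie at the silent level.

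In epididymal cultures the class I pathway split between GFP+ and GFP- cells. Psmb8, Psmb10 and Tap2 were higher in GFP+ cells, while Tap1 and Tapbp were lower there, and B2m did not pass the test. The Gbp3, Gbp2, Irf1, Usp18 and Ifit1 genes were higher in GFP+ cells, and Bst2, Oasl2, Irf3 and Trim25 lower. In all, 11 of 29 members were called higher and 6 lower, against 21.5% and 20.3% of all genes (41.9% in either direction). The share of members called, 17 of 29, thus lay above that of all genes, and their median difference was 0.20, against 0.01 for all genes.

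Psmb8, the immunoproteasome subunit with chymotrypsin-like activity, read 381, 311 and 352 in epididymal GFP+ cells, against 66.9, 71.8 and 89.9 in epididymal GFP- cells. Every GFP+ array lay far above every GFP- array. The difference was 1.99 ± 0.10 (SE), a 3.96-fold higher level in GFP+ cells (limma, adjusted p = 8.85e-11), and the GFP- cells were close to the weak limit. Psmb10 rose less, with 1143 ± 16.6 in GFP+ and 957 ± 42.1 in GFP- cells (SD, n = 3 each; difference 0.25, adjusted p = 0.00049). Psmb9 read 142, 93.9 and 66.7 in GFP+ and 90.1, 99.4 and 117 in GFP- cells. Its arrays overlapped and it was not called (difference -0.06, 95% interval -0.50 to 0.38).

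Tap2, a subunit of the peptide transporter, read 554, 494 and 475 in epididymal GFP+ cells, against 375, 266 and 373 in epididymal GFP- cells. The groups did not overlap (difference 0.58 ± 0.12, adjusted p = 0.000742). Tap1, its partner, ran the other way, with 213, 241 and 222 in GFP+ cells, against 376, 393 and 414 in GFP- cells. These groups did not overlap either, and Tap1 was lower in GFP+ cells by 0.77 ± 0.09 on this scale, or 1.70-fold (adjusted p = 3.39e-06). Tap1 rests on 1 probe set: its other 3 read at most 35.4 in any group mean, under the silent level, and averaging all 4 ended the call (difference -0.13, adjusted p = 0.557). Tapbp, the tapasin gene, read 2358, 2264 and 2217 in GFP+ cells, against 3379, 3818 and 3628 in GFP- cells. It was lower in GFP+ cells by 1.58-fold (difference -0.66 ± 0.05, adjusted p = 1.08e-08), and its second probe set gave -0.44. B2m, the light chain of class I molecules, averaged 17375 ± 126 in GFP+ and 17430 ± 287 in GFP- cells, and the 95% interval of the difference ran from -0.05 to 0.04.

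**Figure D2:**
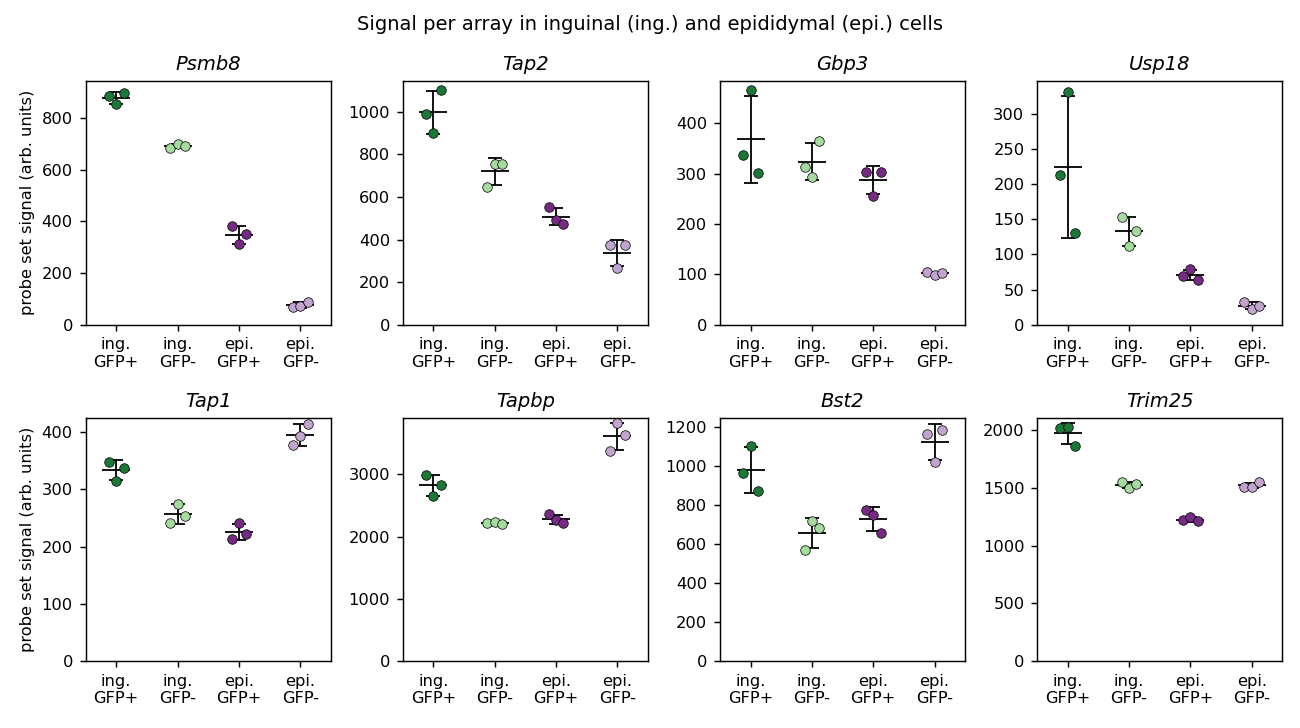
Probe set signal (linear, arbitrary units, axis from 0) of 8 members on each array in inguinal (ing.) and epididymal (epi.) GFP+ and GFP- cells; points are arrays, horizontal bars group means and whiskers SD (n = 3). Psmb8, Tap2, Gbp3 and Usp18 have their lowest arrays in epididymal GFP- cells, and Tap1, Tapbp and Bst2 their highest; Trim25 is highest in inguinal GFP+ cells.

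Among the interferon-inducible GTPases, Gbp3, a guanylate-binding protein, read 302, 255 and 304 in epididymal GFP+ cells, against 104, 99.4 and 103 in epididymal GFP- cells. No arrays overlapped, and the level was 2.55-fold higher in GFP+ cells (difference 1.35 ± 0.14, adjusted p = 7.16e-07). Its relative Gbp2 averaged 3565 ± 140 in GFP+ and 2525 ± 137 in GFP- cells (difference 0.50, adjusted p = 6.03e-07), and both of its probe sets were higher. Iigp1, a GTPase of parasite vacuoles, rose by 0.49 (adjusted p = 0.0161), a call lost without epididymal GFP+ replicate 2 (adjusted p = 0.0771). Its GFP- mean of 64.2 was close to the silent level of 62.5, and its second probe set averaged 37.7 there. Igtp and Irgm1, GTPases of the same immunity-related family, were not called (differences -0.09 and -0.08). Probe sets for genes of such families may also bind their close relatives.

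Of the 10 antiviral effectors measured 4 were called higher and 2 lower in epididymal GFP+ cells, against 21.5% and 20.3% of all genes. Usp18, the protease that removes Isg15 and damps interferon signalling, read 69.5, 78.7 and 63.8 in GFP+ cells, against 32.2, 22.6 and 26.2 in GFP- cells. The groups were apart (difference 1.01 ± 0.24, adjusted p = 0.00273), but the GFP- values were at the silent level, so the fold is not well measured. Ifit1, which binds foreign RNA caps, read 107, 204 and 126 in GFP+ cells, against 76.2, 46.9 and 49.4 in GFP- cells, with no overlap (difference 1.11 ± 0.23, adjusted p = 0.000904), and its GFP- mean too was under the silent level. Ifit3 rose by 0.35 with no overlap of arrays (adjusted p = 0.0383), a call lost on leaving out any of 4 epididymal arrays, with adjusted p up to 0.192. Bst2, the tetherin that holds budding virus at the cell surface, read 776, 750 and 656 in GFP+ cells, against 1164, 1019 and 1185 in GFP- cells. All GFP+ arrays lay below all GFP- arrays (difference -0.62 ± 0.10, adjusted p = 7.32e-05). Oasl2, of the oligoadenylate synthetase family, also fell (-0.61, adjusted p = 0.00424), and its relative Oas1a was not called (0.04). Ifit2 gave 0.26 with an adjusted p = 0.051, and Ifi35 -0.02, neither of them called. Mx1 was called higher, but its means of 20.7 in GFP+ and 7.70 in GFP- cells lie at the silent level and the call was lost under 10 of the other settings tried. Rsad2 was not called.

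Of the 7 sensors and regulatory factors 1 was higher, 2 were lower and 4 were not called in epididymal GFP+ cells, a share near the 41.9% of all genes. Irf1, a transcription factor that interferon gamma induces, read 1209, 1149 and 1144 in epididymal GFP+ cells, against 767, 798 and 756 in epididymal GFP- cells, a difference of 0.58 ± 0.05 (adjusted p = 7.45e-08). Irf3, which relays viral sensing to the type I interferon genes, averaged 1708 ± 5.19 in GFP+ and 2452 ± 99.5 in GFP- cells (difference -0.52 ± 0.04, adjusted p = 5.87e-08). Of its 4 probe sets the brightest 2 gave -0.52 and -0.63 and the dim ones 0.00 and -0.14. Trim25, a ubiquitin ligase that activates RNA sensing, fell by 0.31 (adjusted p = 1.51e-05). Irf7, Irf9, Stat2 and Ifih1, a sensor of long double-stranded RNA, were not called, with differences of -0.04, 0.26, 0.32 and 0.00.

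Markers of mesothelial cells, which cover abdominal fat, moved with this contrast. Of 10 measured 9 were lower in epididymal GFP+ cells and none higher, against 20.3% and 21.5% of all genes. The summed signal of the 10 was 7439 to 7709 in GFP+ and 40365 to 43108 in GFP- cells. Upk3b averaged 600 ± 22.8 in GFP+ and 9459 ± 387 in GFP- cells. In RNA from a mixed culture, a lower share of one cell type and less RNA of a gene in each cell cannot be told apart, and the part of mesothelial cells in the results above was not tested.

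In inguinal cultures the members leaned towards GFP+ cells, by small steps. Called higher were 11 of 29 members, against 5.26% of all genes, and called lower 2, against 7.29% (12.6% in either direction). The median difference was 0.34, against -0.01 for all genes. The antiviral effectors Bst2, Oas1a, Ifit2 and Ifit3, the class I genes Psmb8, Tap1, Tap2 and Tapbp, the GTPases Igtp and Iigp1, and Trim25 were the 11. The number called depended on single arrays: leaving out inguinal GFP+ replicate 1, inguinal GFP- replicate 1 or inguinal GFP- replicate 2 left 7 called in all, and leaving out inguinal GFP- replicate 3 left 8. Folds of the 13 called members ran from 1.12 to 1.48, apart from Mx1 at the silent level. Over all genes 652 were called higher and 904 lower, and after median centring of the arrays 986 and 671; the members called were then 15.

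Trim25 read 2016, 2027 and 1863 in inguinal GFP+ cells, against 1544, 1493 and 1535 in inguinal GFP- cells. No arrays overlapped (difference 0.36 ± 0.04, adjusted p = 1.53e-05), and averaging its probe sets gave 0.24, which was not called (adjusted p = 0.0547). Tapbp read 2994, 2650 and 2830 in GFP+ cells, against 2223, 2232 and 2210 in GFP- cells, and was higher by 0.34 ± 0.05 (adjusted p = 0.000122). Bst2 read 963, 1100 and 872 in GFP+ cells, against 572, 716 and 681 in GFP- cells. It had the largest difference of the 11 (0.57 ± 0.10, adjusted p = 0.000834). Tap1 averaged 333 ± 16.7 in GFP+ and 257 ± 16.7 in GFP- cells, and Tap2 997 ± 102 in GFP+ and 720 ± 63.9 in GFP- cells (differences 0.36 and 0.46, adjusted p = 0.0154 and 0.0157). Leaving out any of 4 inguinal arrays ended the Tap1 call, as did averaging its probe sets (0.13, adjusted p = 0.688), and leaving out either of 2 ended that of Tap2 (adjusted p up to 0.0873). Psmb8 read 885, 853 and 899 in GFP+ cells, against 684, 700 and 692 in GFP- cells. Its groups did not overlap, but its call (0.34, adjusted p = 0.035) was lost when any of 5 inguinal arrays was left out (highest adjusted p = 0.11).

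Among the effectors in inguinal cultures, Oas1a averaged 553 ± 53.9 in GFP+ and 395 ± 19.5 in GFP- cells, and Ifit2 593 ± 41.1 in GFP+ and 431 ± 40.1 in GFP- cells (adjusted p = 0.00526 and 0.00673). The calls of Ifit3 (0.48), Igtp (0.34) and Iigp1 (0.53) were lost on leaving out single inguinal arrays, with adjusted p up to 0.118, 0.127 and 0.156. Averaging the Iigp1 probe sets also ended its limma call (0.40, adjusted p = 0.157), and its second probe set gave 0.27. Usp18 read 214, 331 and 130 in GFP+ cells, against 153, 113 and 133 in GFP- cells. The groups overlapped and it was not called (0.62 ± 0.24, adjusted p = 0.124), though without inguinal GFP+ replicate 3 it was (0.93, adjusted p = 0.00822). Oasl2 (0.47, adjusted p = 0.0609) and Ifit1 (0.56, adjusted p = 0.146) were also not called. Irf1 was lower in GFP+ cells (-0.17, adjusted p = 0.039), a call lost after median centring (adjusted p = 0.0836) and on leaving out any of 5 inguinal arrays. Mx1, with means of 5.58 in GFP+ and 24.8 in GFP- cells, was called lower but lies at the silent level.

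Macrophage and leukocyte markers moved the other way in the inguinal contrast. Of 19 measured 13 were lower in inguinal GFP+ cells, against 7.29% of all genes. Lyz2 was among these, with 201 ± 36.4 in GFP+ and 4011 ± 400 in GFP- cells. The summed signal of the 19 was 6378 to 6995 in GFP+ and 13022 to 15102 in GFP- cells. Of the 19, 10 lay under the silent level in GFP+ cells, against 3 in GFP- cells. Cd53 was the single marker that rose (0.92), with 4110 ± 198 in GFP+ and 2160 ± 111 in GFP- cells. It made up most of the inguinal GFP+ sum and is named here after its value was seen. In the epididymal depot 10 of the 19 lay under the silent level in GFP+ and 9 in GFP- cells, and the others above it. Ptprc and C1qa lay under the silent level in inguinal GFP+ cells and in both epididymal groups. In epididymal GFP- cells C1qa was only just under it (61.2 against 62.5). Adgre1, Csf1r, Cd14 and Cd68, of the same list, lay above the silent level in every group. Lyz2 lay above it, with 419 ± 79.1 in epididymal GFP+ and 805 ± 43.2 in epididymal GFP- cells. Of 12 mural cell markers 2 were higher and 6 lower in inguinal GFP+ cells, against 5.26% and 7.29% of all genes. The summed signal of the 12 was 110209 to 112398 in GFP+ and 122224 to 123258 in GFP- cells. In the epididymal contrast 5 mural markers were higher and 3 lower, against 21.5% and 20.3% of all genes. The summed signal of the 12 was 148629 to 150891 in GFP+ and 115498 to 116079 in GFP- cells. Endothelial markers summed to 1631 to 1708 in GFP+ and 1627 to 1791 in GFP- inguinal cells, and to 2519 to 2688 in GFP+ and 5628 to 5839 in GFP- epididymal cells. Most of the epididymal GFP- sum was Kdr, with 552 ± 24.2 in GFP+ and 4469 ± 157 in GFP- cells. Of the 10 endothelial markers 3 were higher and 2 lower in epididymal GFP+ cells, against 21.5% and 20.3% of all genes. Eng was among the higher ones, with 1464 ± 61.3 in GFP+ and 196 ± 17.2 in GFP- cells. In epididymal GFP- cells 7 of the 10 lay under the silent level. Macrophages express many interferon-response genes, and the part of these cell types in the members' values was not tested.

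**Figure D3:**
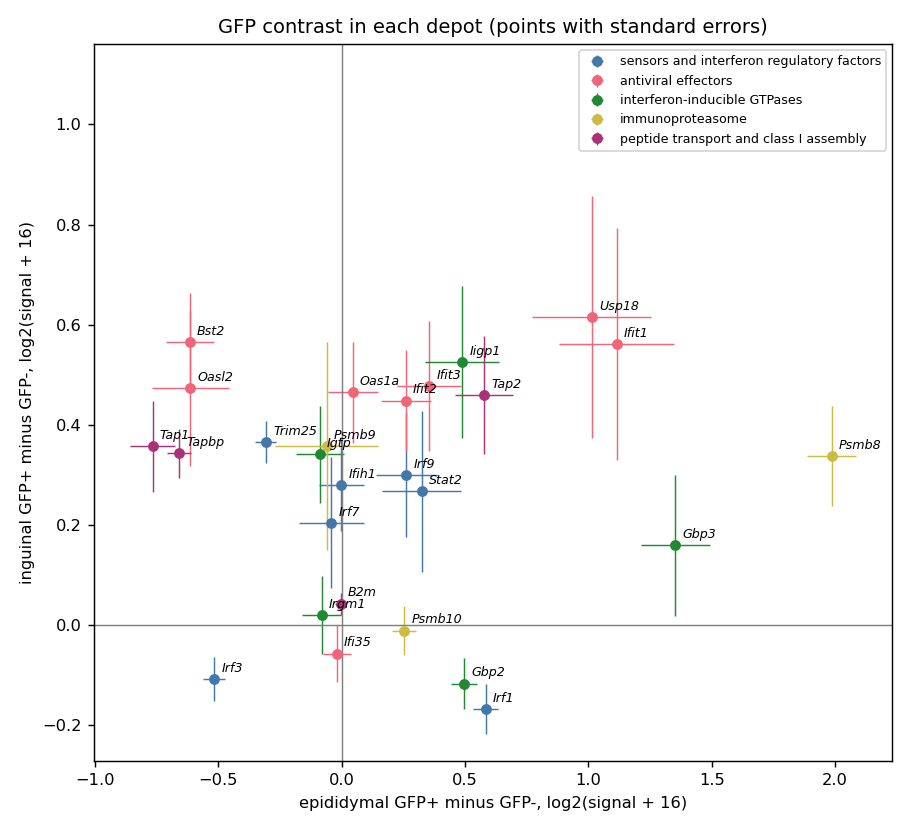
GFP contrast of 27 members in the epididymal (x axis) and the inguinal depot (y axis), each as GFP+ minus GFP- on the log2(signal + 16) scale; points are genes coloured by role, whiskers are standard errors, and Mx1 and Rsad2 are left out because they lie at the silent level. Bst2, Oasl2, Tap1, Tapbp and Trim25 lie above 0 in inguinal and below 0 in epididymal cells, and Psmb8 lies farthest right, at 0.34 in inguinal and 1.99 in epididymal cells. The x values of Usp18 and Ifit1 are not well measured, as their epididymal GFP- means lie under the silent level.

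The GFP contrast itself differed between inguinal and epididymal cultures (interaction term) for 14 of 29 members, against 34.8% of all genes. The inguinal contrast was the higher one for 8 members (16.1% of all genes) and the lower one for 6 (18.7%). Over all genes these were 2000 and 2313, and 2563 and 1843 after median centring. Bst2 (1.18 ± 0.14), Tap1 (1.12 ± 0.13), Oasl2 (1.09 ± 0.22) and Tapbp (1.00 ± 0.07) had the largest positive differences. Bst2, Tap1 and Tapbp, with Trim25 (0.67 ± 0.06), were each called higher in inguinal GFP+ and lower in epididymal GFP+ cells. With probe sets of a gene averaged, the interaction was not called for Tap1 (0.26, adjusted p = 0.401) or Irf3 (0.19, adjusted p = 0.156). Psmb8 (-1.65 ± 0.14) and Gbp3 (-1.19 ± 0.20) had the largest negative ones among members above the silent level. Irf1 was called in opposite directions too (interaction -0.75 ± 0.07, adjusted p = 3.79e-07). The Oas1a interaction (0.42) was lost on leaving out any of 7 arrays (adjusted p up to 0.0878) and without a variance trend (0.0542), and the Igtp interaction (0.43) on leaving out any of 5 arrays (adjusted p up to 0.0632). Calls higher in GFP+ cells of both depots were shared by Ifit3, Iigp1, Psmb8 and Tap2, or 13.8% of the members against 2.30% of all genes. This count was 1 without inguinal GFP+ replicate 1, inguinal GFP- replicate 1 or inguinal GFP- replicate 3. It was 2 when replicate 2 of the inguinal GFP- or of the epididymal GFP+ cells was left out. The opposite pattern of Bst2, Tap1, Tapbp and Trim25 was as frequent among members, and was found in 1.66% of all genes. With each array left out it held for 3 to 5 members, Bst2, Tapbp and Trim25 every time.

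Between depots, inguinal cells had the higher level for most members. These comparisons use the same arrays as the GFP contrasts and are not independent of them. In GFP+ cells 21 of 29 members were called higher in inguinal and 3 lower, against 23.6% and 27.2% of all genes (50.8% in either direction). In GFP- cells 15 were higher and 6 lower, against 27.4% and 26.3% (53.7%). The median difference was 0.42 in GFP+ and 0.17 in GFP- cells, against -0.04 and -0.02 for all genes. Over all genes 2922 were higher and 3370 lower in GFP+ cells, and 3704 and 2687 after median centring. The set of 12 members that were higher in inguinal cells of both fractions (41.4%, against 16.1% of all genes) held Irf1, Irf9, Stat2, Ifih1, Ifit1, Usp18, Irgm1, Iigp1, Psmb8, Psmb10, Tap2 and B2m. Gbp2 and Irf7 were lower in both.

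The largest depot difference was that of Psmb8 in GFP- cells. With 684, 700 and 692 in inguinal and 66.9, 71.8 and 89.9 in epididymal GFP- cells, it was 7.72-fold higher in inguinal cells (2.95 ± 0.10, adjusted p = 3.66e-13). The epididymal GFP- mean of 76.2 was close to the silent level of 62.5, which limits the precision of this fold. In GFP+ cells the inguinal level was 2.46-fold higher (1.30 ± 0.10, adjusted p = 2.43e-08). Tap2 was higher in inguinal cells by 0.95 in GFP+ and 1.07 in GFP- cells. Usp18 was higher by 1.39 in inguinal GFP+ cells, but its epididymal GFP+ mean of 70.7 was close to the silent level of 64.6, so this size is not well measured. In GFP- cells the inguinal levels of Gbp3 and Irf1 were higher by 1.52 ± 0.14 and 0.88 ± 0.05. Usp18 and Ifit1 were also called higher there, against epididymal GFP- means under the silent level, so the size of their differences is not given. Irf1 averaged 1433 ± 22.9 in inguinal against 774 ± 21.6 in epididymal GFP- cells. Oasl2 and Trim25 were called in GFP+ cells (1.08 ± 0.16 and 0.68 ± 0.04) and not in GFP- cells (-0.01 and 0.01), and their interaction values are given above. Stat2 and Irf9, which act in type I interferon signalling, were likewise higher in inguinal cells. Stat2 averaged 188 ± 16.8 in inguinal against 96.9 ± 25.5 in epididymal GFP+ cells, and 153 ± 11.0 in inguinal against 73.0 ± 8.21 in epididymal GFP- cells. Irf9 averaged 547 ± 78.0 in inguinal against 359 ± 58.3 in epididymal GFP+ cells, and 439 ± 39.5 in inguinal against 295 ± 18.3 in epididymal GFP- cells. All 4 differences passed the test (0.55 to 0.93). The second probe set of Stat2 gave a smaller difference, 0.35 in both fractions. The means of Stat2 and Iigp1 in epididymal GFP- cells were also close to the silent level of 62.5. Irgm1, a GTPase of autophagic defence, averaged 2854 ± 464 in inguinal against 1721 ± 96.5 in epididymal GFP+ cells, and 2791 ± 32.6 in inguinal against 1820 ± 61.3 in epididymal GFP- cells (differences 0.71 and 0.61). For B2m the inguinal level was higher by 0.19 in GFP+ and 0.14 in GFP- cells.

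Against this direction, Gbp2 was lower in inguinal cells. It averaged 1967 ± 106 in inguinal against 3565 ± 140 in epididymal GFP+ cells (-0.85 ± 0.05), and 2134 ± 101 in inguinal against 2525 ± 137 in epididymal GFP- cells (-0.24 ± 0.05). Irf7, the regulator that amplifies type I interferon, differed by -0.39 in GFP+ cells (adjusted p = 0.0203) and by -0.64 in GFP- cells (adjusted p = 0.000585), and the call in GFP+ cells was lost after quantile normalization (adjusted p = 0.118) and median centring (0.0553). Bst2, Tap1 and Tapbp were higher in inguinal GFP+ cells (0.42, 0.53 and 0.31) and lower in inguinal GFP- cells (-0.76, -0.59 and -0.69). Averaging the Tap1 probe sets ended both of its limma calls (0.07, adjusted p = 0.748 in GFP+ and -0.20, adjusted p = 0.302 in GFP- cells). The calls of Ifit1 (0.59, adjusted p = 0.0454) and Irf1 (0.13, adjusted p = 0.0488) in GFP+ cells were lost on leaving out any of 8 and any of 9 of the 12 arrays, with adjusted p up to 0.196 and 0.198. Among mesothelial markers 8 of 10 were lower and 2 higher in inguinal GFP+ cells, against 27.2% and 23.6% of all genes. In inguinal GFP- cells 9 were lower and 1 higher, against 26.3% and 27.4% of all genes. Among macrophage and leukocyte markers 7 of 19 were lower and 1 higher in inguinal GFP+ cells, a share under the 50.8% of all genes. In inguinal GFP- cells 14 of the 19 were higher and 2 lower, against 27.4% and 26.3% of all genes. The summed mesothelial signal was 1965 to 2316 in GFP+ and 1650 to 1801 in GFP- inguinal cells, with Upk3b under the silent level in both, and the summed macrophage and leukocyte signal 4121 to 4443 in epididymal GFP+ and 3867 to 4192 in epididymal GFP- cells. The near-equal macrophage and leukocyte sums hold markers that moved in opposite directions. In the epididymal GFP contrast 7 of the 19 were lower and 2 higher in GFP+ cells, against 20.3% and 21.5% of all genes. The part of mesothelial cells, macrophages and leukocytes in the depot differences was not tested.

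**Figure D4:**
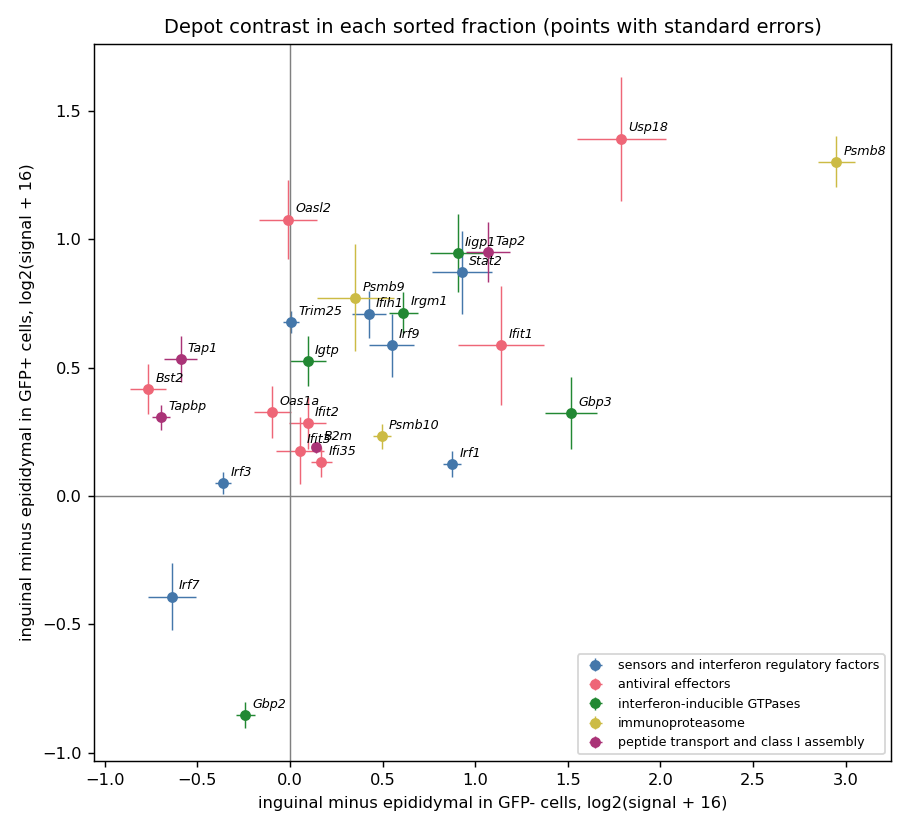
Depot contrast of 27 members in GFP- cells (x axis) and GFP+ cells (y axis), each as inguinal minus epididymal on the log2(signal + 16) scale; points are genes coloured by role, whiskers are standard errors, and Mx1 and Rsad2 are left out because they lie at the silent level. Most members lie above 0 on the y axis, Psmb8 and Usp18 are high on both axes, and Gbp2 and Irf7 lie below 0 on both. The x values of Usp18 and Ifit1 are not well measured, as their epididymal GFP- means lie under the silent level.

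Other genes of the pathway were counted from lists drawn up beside the members. Interferon genes themselves gave little signal. All 8 measured interferon ligands were weakly detected, with 5 of them under the silent level in GFP+ and all 8 in GFP- cells of the inguinal depot and 6 in either epididymal fraction, and 1 of the 8 was called in the epididymal GFP contrast (Ifnb1, with means of 52.1 in GFP+ and 31.0 in GFP- cells, both under that level). Of 12 receptors and signalling genes 0 were higher and 1 lower in inguinal GFP+ cells (limma; 1 had an unadjusted p under 0.05), and 5 were higher and 1 lower in epididymal GFP+ cells. The shares of all genes were 5.26% higher and 7.29% lower in the inguinal contrast. In the epididymal contrast they were 21.5% and 20.3%, and the share of the 12 called lay near the 41.9% of all genes. Jak1, a kinase of both receptor types, averaged 6046 ± 108 in epididymal GFP+ and 3289 ± 111 in epididymal GFP- cells (0.88 ± 0.03, adjusted p = 3.57e-12). Socs3, a feedback inhibitor of cytokine receptors, averaged 1475 ± 68.5 in epididymal GFP+ and 436 ± 65.3 in epididymal GFP- cells (1.73 ± 0.10). In GFP- cells the interferon gamma receptor chain Ifngr2 was higher in inguinal than in epididymal cells by 1.02 ± 0.05.

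Of 6 measured class I heavy chain genes 2 were higher and 0 lower in epididymal GFP+ cells, against 21.5% and 20.3% of all genes. H2-D1 averaged 7365 ± 247 in epididymal GFP+ and 4642 ± 130 in epididymal GFP- cells (0.66 ± 0.03, adjusted p = 4.15e-11), and H2-K1 6285 ± 236 in epididymal GFP+ and 4076 ± 90.9 in epididymal GFP- cells (0.62 ± 0.03, adjusted p = 3.46e-10). In inguinal cultures H2-D1 averaged 10178 ± 210 in GFP+ and 9532 ± 215 in GFP- cells, and 0 of the 6 were called by limma (2 had an unadjusted p under 0.05). These genes are near-identical in parts, so their probe sets may share signal. Of 7 genes of loading and peptide trimming 6 were higher and 1 lower in epididymal GFP+ cells, against the same 21.5% and 20.3%. Erap1, which trims peptides in the endoplasmic reticulum, was higher by 0.83 ± 0.10, and Psme1, a subunit of the proteasome activator, lower by 0.26. Of the 7 constitutive proteasome subunits 1 was higher and 5 were lower in that contrast (21.5% and 20.3% of all genes), by -0.26 for Psmb2 and less in size for the other 4. Psmb5, the constitutive counterpart of Psmb8, averaged 8030 ± 131 in epididymal GFP+ and 8820 ± 141 in epididymal GFP- cells (-0.14).

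Of 34 other interferon-stimulated genes 6 were higher and 0 lower in inguinal GFP+ cells (8 had an unadjusted p under 0.05) and 8 were higher and 5 lower in epididymal GFP+ cells, with median differences of 0.14 in inguinal and 0.01 in epididymal cells. In the epididymal contrast these counts lie near or under the shares of all genes (21.5% higher and 20.3% lower), and the median equals that of all genes. Among the lower ones in epididymal GFP+ cells, Ifi202b, of the DNA-sensing Ifi200 family, averaged 1130 ± 88.6 in epididymal GFP+ and 2498 ± 48.6 in epididymal GFP- cells (-1.14 ± 0.07), and Ifi27l2a 443 ± 59.2 in epididymal GFP+ and 1086 ± 102 in epididymal GFP- cells (-1.27 ± 0.10). Both were higher in inguinal GFP+ cells, by 0.37 and 0.43. Trim30a ran the other way, higher by 1.54 ± 0.12 in epididymal GFP+ cells. Class II presentation genes, which professional antigen-presenting cells use, lay under the silent level for 3 of 8 in GFP+ and 2 in GFP- cells of the inguinal depot, and for 2 in GFP+ and 4 in GFP- cells of the epididymal depot. Of the 8, H2-Ab1 and H2-DMa were higher and Ctss lower in epididymal GFP+ cells, against 21.5% and 20.3% of all genes. The epididymal GFP- means of H2-Ab1 (40.1) and H2-DMa (57.8) lay under the silent level. In inguinal GFP+ cells Ctss, which macrophages use, was lower by 4.63 ± 0.20 and the other 7 were not called. The share of all genes called lower there was 7.29%, and the inguinal GFP+ mean of Ctss (41.9) lay under the silent level.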

How the data were processed

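Sample labels describe 12 Affymetrix arrays of biotin-labelled RNA, 3 in each of 4 groups, with RNA extracted by Trizol and column purification, per the labels' protocols. The deposited values are probe set intensities on a linear scale (22626 probe sets, array medians from 347.3 to 371.2). The summary algorithm and the scaling are not given in the sources used here, and the number of arrays limits the precision. Probe sets were named through the platform annotation with symbols updated by Entrez ID: 20380 had 1 symbol, 691 several and 1555 none, and 24 Entrez IDs had no current symbol. Only probe sets with 1 symbol were used, and each of 12393 genes was represented by its brightest one across the 12 arrays. The members, the other gene lists and the tests were chosen with earlier results of these data known. limma 3.58.1 in R 4.3.3 (lmFit, eBayes with a variance trend, two-sided) was fitted to log2(intensity + 16) over 4 group means, with 5 contrasts and Benjamini-Hochberg adjustment over all genes. Intervals are at the 95% level. The code was tested on simulated data. All members may be named, and of each other list up to 4 called genes per contrast with the smallest adjusted p. Alternatives were pseudocounts of 1 and 64, median centring, quantile normalization, a fit without weakly detected genes, no variance trend, averaged probe sets, only the groups compared, a replicate block, and each array left out in turn. Replicate numbers come from the sample titles and were not taken to pair the samples. No scan date or batch was given in the sources used here.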

Additional observations from a re-analysis of the deposited data

Results flagged for a closer look

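For 14 members the GFP contrast differed between the depots in the interaction test (limma, adjusted p under 0.05), given here as the inguinal minus the epididymal contrast on the log2(signal + 16) scale. It was positive for Bst2 (1.18), Tap1 (1.12), Oasl2 (1.09), Tapbp (1.00), Trim25 (0.67), Igtp (0.43), Oas1a (0.42) and Irf3 (0.41). It was negative for Psmb8 (-1.65), Mx1 (-1.54), Gbp3 (-1.19), Irf1 (-0.75), Gbp2 (-0.61) and Psmb10 (-0.26). The Oas1a and Igtp results were each lost on leaving out single arrays, and those of Tap1 and Irf3 on averaging the probe sets of the gene. Mx1 lies at the silent level in all 4 groups. The share of all genes called in this test was 34.8%, and the markers of mesothelial cells and of macrophages differed in it too, with 9 of 10 mesothelial markers positive and 15 of 19 macrophage and leukocyte markers negative. Their part in the members' values was not tested. Groups of 3 arrays are too small for a search for single outlying arrays.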

How the results depend on the processing

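No member's difference changed direction among the calls under any alternative run. The inguinal GFP contrast depended most on single arrays: members called numbered 7 to 15 with each array left out, against 13, namely 7 without replicate 1 of the inguinal GFP+ cells or replicate 1 or 2 of the inguinal GFP- cells, and 8 without replicate 3 of those GFP- cells. The range was 15 to 18 for the epididymal GFP contrast (17 with all arrays), 20 to 25 for the depot contrast in GFP+ cells (24), 20 to 21 in GFP- cells (21) and 12 to 14 for the interaction (14). Of the single calls tested over all alternatives, 43 were lost and 16 gained in the inguinal GFP contrast, 20 lost and 7 gained in the epididymal, 35 lost and 10 gained between depots in GFP+ cells, 4 lost and 0 gained in GFP- cells, and 15 lost and 1 gained in the interaction. With the replicate number as a block, members called were 13, 16, 23, 21 and 14 in the same order of comparisons. Same-numbered arrays of different groups deviated from their group means with correlations from -0.06 to 0.04, and the numbers were not taken as pairs. Median centring gave 15, 15, 26, 21 and 15 and quantile normalization 14, 17, 25, 21 and 14. The cause of these changes was not tested. Differences of members near the silent level, Rsad2 and Mx1 in all groups and Ifit1 and Usp18 in epididymal GFP- cells, are limited by signal over background.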

Other observations

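Within the inguinal GFP+ group most antiviral effectors had their highest and their lowest value on the same arrays. Of 10 effectors 7 were highest on replicate 2, against 30.8% of all genes, and 7 were lowest on replicate 3, against 34.0% of all genes. The 10 include Rsad2 and Mx1, which lie at the silent level. Usp18 read 214, 331 and 130 on the 3 arrays, Ifit1, highest on replicate 1, 282, 237 and 157, and Gbp3, an inducible GTPase outside that role, 337, 465 and 302. Other roles ran otherwise on replicate 2: all 3 immunoproteasome members and 3 of 4 of peptide transport and class I assembly were lowest there, and 0 highest. Over all 29 measured members 14 were highest on replicate 2 and 16 lowest on replicate 3.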
